A study of Homo sapiens with 6 samples.

Results

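The aminoacyl-tRNA synthetase genes of the deposited table were followed in human fibroblasts treated with sauchinone after ultraviolet B (UVB) irradiation. A gene was taken as a member where its symbol is a 1-letter amino acid code followed by ARS and a digit from 1 to 3, or is EPRS1, FARSA or FARSB. The rule found 38 of the 61806 genes in the table and used no measured value. Symbols ending in 2 (17 genes) encode mitochondrial enzymes, 19 genes encode cytosolic enzymes, and GARS1 and KARS1 each encode the cytosolic and the mitochondrial form of their enzyme and were kept as a group of 2 dual genes. Of the 38, 37 passed the filter on low counts. VARS2, the mitochondrial valine enzyme, did not: its counts were 5, 12 and 4 in the UVB libraries and 8, 6 and 15 in the sauchinone libraries.

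The cells were wild-type HFF cells, a foreskin fibroblast culture from a cell bank. All 6 libraries came from cells given 40 mJ per cm2 of UVB and cultured for 48 h, 3 with vehicle (UVB replicates 1 to 3) and 3 with 10 µM sauchinone, a plant lignan (UVB + sauchinone replicates 1 to 3). No unirradiated library was used here, so every difference compares irradiated cells given the compound with irradiated cells given vehicle. The labels do not say whether the compound was also given before irradiation, nor whether replicates were separate cultures, so p-values measure the spread between these libraries, which may be technical.

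Aminoacyl-tRNA synthetases join each amino acid to its tRNA, the step that fixes which amino acid a codon is read as. Most amino acids have a cytosolic enzyme and a separate, nuclear-encoded mitochondrial enzyme that serves translation of the mitochondrial genome, and in the cytosol several of the enzymes sit in a multi-synthetase complex held together by scaffold proteins. Uncharged tRNA activates the kinase GCN2 (EIF2AK4), which leads to translation of the transcription factor ATF4, and ATF4 is known to raise transcription of many cytosolic synthetase genes.

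Library totals were 20984851 to 23076388 counts. UVB replicate 3 stood farthest from its group, with a chi-square per degree of freedom of 9.04 and 19.4 against the other UVB libraries, which differed from each other by 5.00. The range was 4.04 to 7.5 among sauchinone libraries and 67.7 to 110 between the groups. Of the fibroblast markers, 10 of 10 were tested and 9 fell with sauchinone, and their summed level was 19439 to 21267 CPM in UVB and 13730 to 14028 CPM with sauchinone, each CPM value being a count scaled to the adjusted library total. Summed keratinocyte markers were 10.9 to 11.6 and 13.0 to 13.7 CPM with 3 of 5 at 0 counts. KRT10 made up most of that sum, with means of 11.1 CPM in UVB and 12.9 CPM with sauchinone, and was not called. Melanocyte markers were 1.63 to 2.41 and 1.30 to 1.49 CPM with 1 of 4 at 0, endothelial markers 0.397 to 0.674 and 0.362 to 0.728 CPM with 2 of 4 at 0, and immune markers 0.963 to 1.76 and 1.2 to 1.76 CPM with 1 of 4 at 0. The part of these shifts in the results on synthetases was not tested. In RNA from whole cultures, fewer cells of a type and less RNA per cell cannot be told apart.

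Sauchinone did not move the synthetase genes in one direction: 10 members rose, 14 fell and 13 did not pass the test (edgeR quasi-likelihood test, Benjamini-Hochberg adjusted p under 0.05 over the 15704 genes tested). Of all genes tested, 49.6% were called, 24.7% as higher and 24.9% as lower. Against these shares, 27% of the 37 tested members were called higher and 37.8% lower. The median log2 fold change of the members was 0.0029, beside 0.0071 for all genes tested. CPM values of the groups did not overlap in 27 members, against 57.1% of all genes tested.

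Both compartments held rises and falls, and the mitochondrial enzymes had the wider range. Of 16 tested mitochondrial genes, 5 rose and 8 fell, with a median log2 fold change of −0.26 and a range of −1.92 to 1.10. Of 19 cytosolic genes, 5 rose and 6 fell, with a median of 0.03 and a range of −0.72 to 0.70. Neither dual gene passed. The difference between the compartments was not tested.

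**Figure D1:**
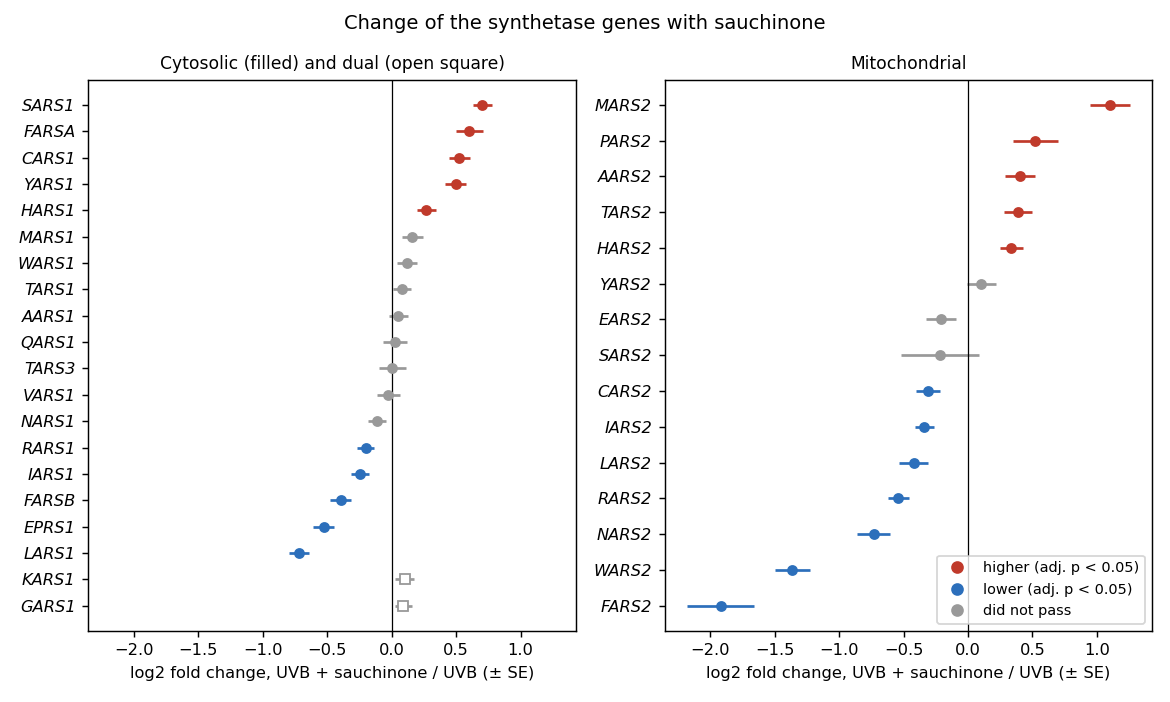
Log2 fold change of the synthetase genes reported here, UVB + sauchinone over UVB, with its standard error (horizontal axis), for cytosolic and dual genes and for mitochondrial genes. Colour marks genes called higher, called lower or not passed at an adjusted p of 0.05. The mitochondrial genes spread from −1.92 (FARS2) to 1.10 (MARS2), the cytosolic ones from −0.72 (LARS1) to 0.70 (SARS1).

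Summed over genes, the cytosolic enzymes stayed at nearly the same total while the mitochondrial total was lower. The summed cytosolic level was 2982 ± 21.5 CPM in UVB and 2976 ± 32.7 CPM with sauchinone (SD, n = 3 each). Summed mitochondrial levels were 587, 581 and 579 CPM in UVB and 519, 478 and 516 CPM with sauchinone. These 2 sets of totals did not overlap, and IARS2, which made up the most of the mitochondrial total at 214 ± 12 CPM in UVB, was among the genes that fell. The dual genes summed to 530 ± 25.4 CPM and 566 ± 8.83 CPM. Each sum except that of the dual genes joins genes that rose and genes that fell.

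Among the cytosolic enzymes, the serine, phenylalanine, cysteine, tyrosine and histidine genes held the rises. SARS1 (ENSG00000031698, GRCh38, chr1:109213918-109238182, plus strand) encodes the seryl-tRNA synthetase, which also charges the tRNA that selenocysteine is made on. Its level was 263, 286 and 236 CPM in UVB and 418, 436 and 423 CPM with sauchinone. The lowest sauchinone library was far above the highest UVB library, a log2 fold change of 0.70 ± 0.07 (SE, adjusted p = 7.1e-08) or 1.63-fold. Its change lay at percentile 90.1 of all genes tested.

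CARS1, the cysteinyl enzyme (chr11:3000922-3057613, minus strand), had 82.4, 87.0 and 75.5 CPM in UVB and 114, 122 and 116 CPM with sauchinone. YARS1, the tyrosyl enzyme (chr1:32775237-32818031, minus strand), had 106, 111 and 92.6 CPM in UVB and 143, 151 and 143 CPM with sauchinone. Both genes were higher in every sauchinone library than in any UVB library, by 1.44-fold for CARS1 (log2 fold change 0.52 ± 0.08, adjusted p = 1.1e-05) and by 1.41-fold for YARS1 (0.50 ± 0.08, adjusted p = 2.3e-05, edgeR). HARS1, the histidyl enzyme, had the smallest cytosolic rise: 118, 118 and 109 CPM became 136, 138 and 140 CPM, a log2 fold change of 0.27 ± 0.07 (adjusted p = 0.0047).

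The genes for the subunits of cytosolic phenylalanyl-tRNA synthetase moved in opposite directions. That enzyme is a tetramer with equal numbers of the catalytic alpha chain (FARSA) and the beta chain (FARSB). FARSA (chr19:12922479-12934037, minus strand) had 35.4, 39.9 and 28.2 CPM in UVB and 52.5, 49.2 and 55.4 CPM with sauchinone, a rise of 1.52-fold (log2 fold change 0.60 ± 0.11, adjusted p = 6.5e-05). FARSB (chr2:222566899-222656092, minus strand) had 87.6, 91.7 and 87.8 CPM in UVB and 64.2, 68.7 and 70.1 CPM with sauchinone, a fall of 1.32-fold (−0.40 ± 0.08, adjusted p = 0.00026). Neither gene's groups overlapped. Both calls held with the GC trend removed, at 0.37 for FARSA and −0.24 for FARSB, and FARSB was at −0.23 with the span trend removed.

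Per exonic kilobase the FARSA to FARSB ratio was 1.12, 1.21 and 0.894 in UVB and 2.27, 1.99 and 2.19 with sauchinone. The means were 1.08 ± 0.163 and 2.15 ± 0.145 (SD, n = 3), a log2 difference of 1.01 ± 0.14 (SE). This ratio was chosen after its values were seen, and its exact two-sided permutation p of 0.1 is the smallest that 3 libraries against 3 can give. FARSA spans 11.6 kb of genome and FARSB 89.2 kb.

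The cytosolic falls passed mostly in long genes, the leucyl enzyme among them. LARS1, whose product also serves as a leucine sensor for the growth-controlling kinase complex mTORC1 (chr5:146110566-146182696, minus strand), had 144, 153 and 167 CPM in UVB and 94.4, 90.9 and 96.5 CPM with sauchinone. It was 1.65-fold lower with sauchinone and no libraries overlapped (−0.72 ± 0.08, adjusted p = 9.6e-08, edgeR). With the exonic size trend removed LARS1 was at −0.34 and still called.

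EPRS1, which encodes the glutamyl and prolyl activities on a single protein (chr1:219968600-220046530, minus strand), had 272, 255 and 319 CPM in UVB and 190, 198 and 198 CPM with sauchinone, a fall of 1.44-fold (log2 fold change −0.53 ± 0.08, adjusted p = 9.5e-06). UVB replicate 3 was the highest of its libraries. IARS1, the isoleucyl enzyme, had 397, 393 and 416 CPM in UVB and 335, 346 and 335 CPM with sauchinone (−0.25 ± 0.07, adjusted p = 0.0037). This call did not hold once the dependence of counts on genomic span (−0.10, adjusted p = 0.23) or on exonic size was smoothed out across all genes, and the value turned to 0.16 in the latter. RARS1, the arginyl enzyme, had 244, 248 and 240 CPM in UVB and 209, 214 and 213 CPM with sauchinone (−0.20 ± 0.07, adjusted p = 0.017). Its call was lost without UVB replicate 1, UVB + sauchinone replicate 1 or UVB + sauchinone replicate 3, with scaling by library size only (−0.16, adjusted p = 0.056), and with the trend with GC content removed (−0.05, adjusted p = 0.53).

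The other 8 cytosolic genes did not pass: NARS1, VARS1, TARS3, QARS1, AARS1, TARS1, WARS1 and MARS1, with log2 fold changes of −0.11 (NARS1) to 0.16 (MARS1) and adjusted p of 0.11 to 0.99. NARS1, the asparaginyl enzyme, had the highest level per length of all members in UVB, 77.2 fragments per kilobase of exon scaled to the library total (FPKM), ahead of RARS1 (70.3 FPKM) and SARS1 (66.8 FPKM). Its libraries did not overlap (314, 311 and 338 CPM against 287, 310 and 294 CPM), and it was called lower once the trend with genomic span was removed (−0.23, adjusted p = 0.0078). MARS1, the methionyl enzyme, was called higher without UVB replicate 2 (0.23, adjusted p = 0.022, edgeR). WARS1, the tryptophanyl enzyme, had 115, 120 and 106 CPM in UVB and 120, 124 and 126 CPM with sauchinone.

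Neither dual gene passed the test. GARS1, for glycine, had 351, 374 and 342 CPM in UVB and 375, 392 and 369 CPM with sauchinone, and these ranges overlapped (0.09 ± 0.07, adjusted p = 0.29). KARS1, for lysine, had 179, 182 and 163 CPM in UVB and 186, 185 and 191 CPM with sauchinone, which did not overlap but gave an adjusted p of 0.26 (0.10 ± 0.07). GARS1 was called higher with the exonic size trend removed (0.42, adjusted p = 4.8e-05), and KARS1 with the GC trend removed (0.15, adjusted p = 0.037, edgeR).

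**Figure D2:**
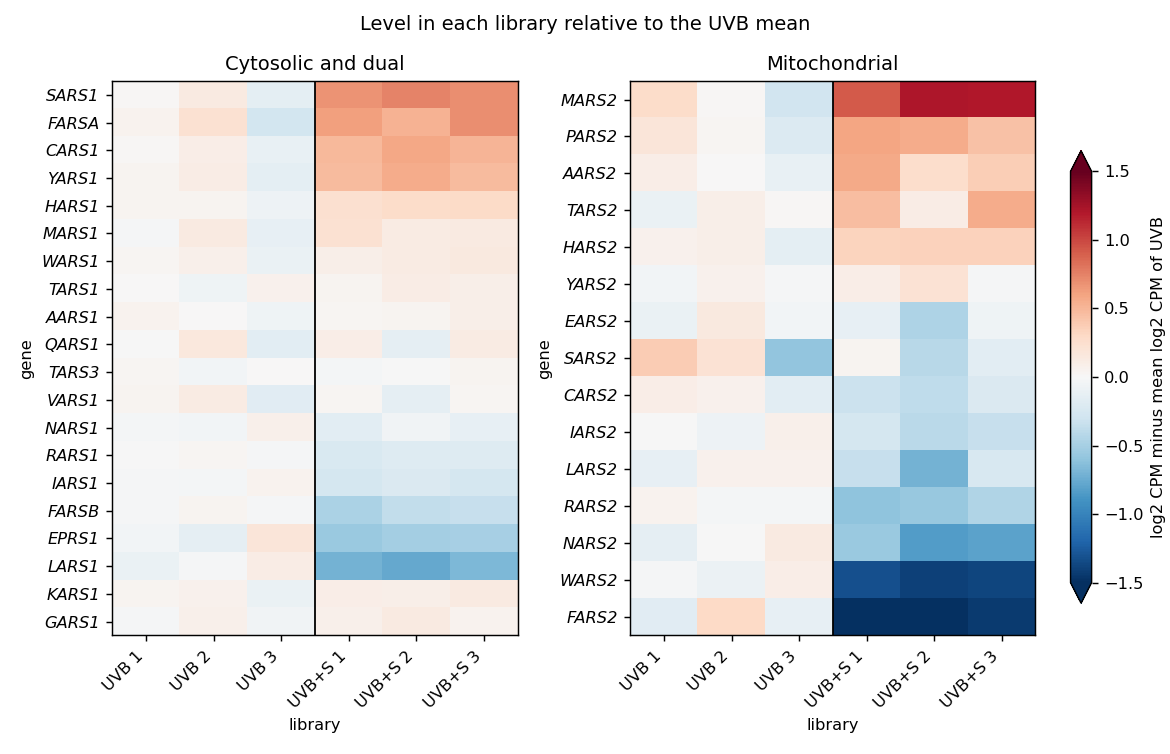
Log2 CPM of the synthetase genes reported here (rows) in each library (columns, UVB 1 to 3 and UVB + sauchinone 1 to 3, written UVB+S) minus its mean over the UVB libraries, in colour. Cytosolic and dual genes are in one panel and mitochondrial genes in the other. UVB 3 often has the UVB value farthest from those of the sauchinone libraries.

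Calls were read again without the library that stood apart. UVB replicate 3 was the lowest UVB library in 9 of the 10 members that rose and the highest in 8 of the 14 that fell. Without it, 5 cytosolic genes rose and 6 fell, all of them among those called with it, and 4 mitochondrial genes rose and 8 fell. PARS2 was the gene whose call was lost. The position of UVB replicate 3 among the UVB libraries was not counted over all called genes. Its place in the members that rose and fell is therefore not shown to be particular to them.

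In the mitochondrion, the widest changes were falls in the phenylalanyl and tryptophanyl enzymes. FARS2, which encodes the monomeric mitochondrial phenylalanyl-tRNA synthetase, spans 568 kb (ENSG00000145982, chr6:5261044-5829192, plus strand), the longest of the members. It had 4.04, 5.56 and 4.15 CPM in UVB and 0.769, 1.17 and 1.67 CPM with sauchinone, from counts of 84, 120 and 94 against 17, 27 and 39. The highest sauchinone library was below the lowest UVB library, and the fall was 3.78-fold (log2 fold change −1.92 ± 0.26, adjusted p = 2.4e-06, edgeR), at percentile 1.42 of all genes tested. With the trend with genomic span removed the value was −0.75 (adjusted p = 0.025).

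WARS2, the tryptophanyl enzyme, spans 109 kb (ENSG00000116874, chr1:119031216-119140654, minus strand). Its level was 13.2, 12.6 and 14.2 CPM in UVB and 5.33, 5.06 and 5.14 CPM with sauchinone. The sauchinone libraries lay within a narrow range far below the UVB libraries, a fall of 2.57-fold (−1.36 ± 0.14, adjusted p = 3e-08). With the span trend removed the log2 fold change was −1.11 (adjusted p = 4.7e-07).

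NARS2, for asparagine, had 14.2, 15.5 and 17.0 CPM in UVB and 10.5, 8.68 and 8.87 CPM with sauchinone, a fall of 1.66-fold (−0.73 ± 0.13, adjusted p = 6e-05). RARS2, for arginine and known from an inherited form of pontocerebellar hypoplasia, had 85.9, 81.2 and 80.9 CPM in UVB and 54.5, 55.7 and 60.2 CPM with sauchinone, a fall of 1.46-fold (−0.54 ± 0.08, adjusted p = 9.7e-06). IARS2, for isoleucine and at 50.8 FPKM the highest mitochondrial member per length in UVB, had 213, 202 and 226 CPM in UVB and 178, 161 and 167 CPM with sauchinone (−0.34 ± 0.07, adjusted p = 0.00062). In none of these 3 genes did the groups overlap. With the span trend removed NARS2 was at −0.36 (adjusted p = 0.022), with the exonic size trend removed RARS2 was at −0.21 (adjusted p = 0.039), and with the GC trend removed IARS2 was at −0.22 (adjusted p = 0.0028, edgeR).

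Smaller falls passed in LARS2 and CARS2, among others. LARS2, for leucine, had 25.0, 28.4 and 28.5 CPM in UVB and 21.4, 16.7 and 23 CPM with sauchinone (−0.42 ± 0.12, adjusted p = 0.0043), but its value was 0.05 (adjusted p = 0.74) once the span trend was removed, and the gene spans 166 kb. CARS2, for cysteine, had 47.0, 45.9 and 39.5 CPM in UVB and 35.1, 33.7 and 37.8 CPM with sauchinone and fell by 0.31 on the log2 scale (adjusted p = 0.0087, edgeR). Its call was lost without UVB replicate 1 and with the trend with span (−0.20, adjusted p = 0.083) or exonic size (−0.14, adjusted p = 0.25) removed.

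The mitochondrial rises were led by MARS2, the methionyl enzyme. Its exonic size equals its genomic span of 3.03 kb, so the table gives it no intron (ENSG00000247626, chr2:197705369-197708395, plus strand). MARS2 had 6.60, 5.51 and 4.46 CPM in UVB and 10.4, 12.6 and 12.5 CPM with sauchinone. Every sauchinone library exceeded every UVB library, and the rise was 2.15-fold (log2 fold change 1.10 ± 0.16, adjusted p = 4.2e-06), at percentile 96.4 of all genes tested. The value was 0.88 with the span trend removed. MARS2 lies wholly within a longer gene of the same strand that had 0 counts in all libraries.

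PARS2, for proline, had 4.86, 4.35 and 3.71 CPM in UVB and 6.47, 6.31 and 5.78 CPM with sauchinone (0.52 ± 0.17, adjusted p = 0.014). AARS2, for alanine, had 15.8, 14.7 and 13.7 CPM in UVB and 21.8, 17.6 and 19 CPM with sauchinone (0.40 ± 0.12, adjusted p = 0.0064). TARS2, for threonine, had 24.9, 28.4 and 27 CPM in UVB and 37.0, 28.9 and 39.2 CPM with sauchinone (0.39 ± 0.11, adjusted p = 0.0053), where UVB + sauchinone replicate 2 was close to the highest UVB library. The AARS2 call was lost without UVB + sauchinone replicate 1 and the TARS2 call without UVB + sauchinone replicate 3. With the span trend removed neither PARS2 (0.31, adjusted p = 0.14) nor AARS2 (0.24, adjusted p = 0.089, edgeR) was called.

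YARS2, EARS2 and SARS2 did not pass, with log2 fold changes of 0.10, −0.21 and −0.22. SARS2, the mitochondrial seryl enzyme, had the lowest counted level of the tested members at 0.55 FPKM in UVB. Its counts were 45, 42 and 25 against 38, 29 and 35, with a standard error of 0.31. A change of the size seen in HARS1 was not detectable there at these counts.

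HARS2, the mitochondrial histidyl enzyme, rose together with its neighbour HARS1. HARS2 had 55.0, 56.0 and 47.4 CPM in UVB and 66.2, 66.8 and 66.9 CPM with sauchinone (0.34 ± 0.09, adjusted p = 0.0026). The genes point away from each other on chromosome 5, with 84 bases between their RefSeq starts (GRCh38.p14), and their deposited spans overlap by 108 bases on opposite strands. The log2 ratio of HARS1 to HARS2 moved by −0.07, the smallest move among the 18 pairs described below. With the span trend removed neither rise passed (HARS1 0.13, adjusted p = 0.13, and HARS2 0.12, adjusted p = 0.21, edgeR).

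In both compartments most long genes fell, and shorter ones rose or did not pass in most cases. Of all genes tested with a genomic span of at least 50 kb (5307 genes), 12.7% rose and 47.0% fell, with a median log2 fold change of −0.28, and of the 10397 shorter ones 30.8% rose and 13.6% fell, with a median of 0.13. All 7 mitochondrial members of at least 50 kb fell (FARS2, WARS2, NARS2, RARS2, LARS2, IARS2 and CARS2, median −0.54). Of the 9 shorter tested ones 5 rose, 1 fell and 3 did not pass (median 0.34). Of 7 cytosolic members of at least 50 kb 5 fell, TARS3 did not pass and CARS1 rose (median −0.40), and of 12 shorter ones 4 rose, RARS1 fell and 7 did not pass (median 0.10). The length limit was chosen with these data in view, so the counts are a description.

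The smooth dependence of counts on genomic span, fitted over all genes, was then removed. The median of the long mitochondrial members went from −0.54 to −0.36 and that of the short ones from 0.34 to 0.12. The medians of the long and short cytosolic members became −0.23 and 0.07. After this step 2 mitochondrial genes were called higher (MARS2 and TARS2) and 6 lower (among them FARS2, WARS2, NARS2, RARS2 and IARS2), all of them among the genes called before. Of the cytosolic genes, 4 were called higher and 6 lower, of which 4 and 5 had been called before. The same fit called 3804 of the 15704 genes tested higher and 3463 lower. TARS2 was close to the threshold there (0.26, adjusted p = 0.049, edgeR).

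**Figure D3:**
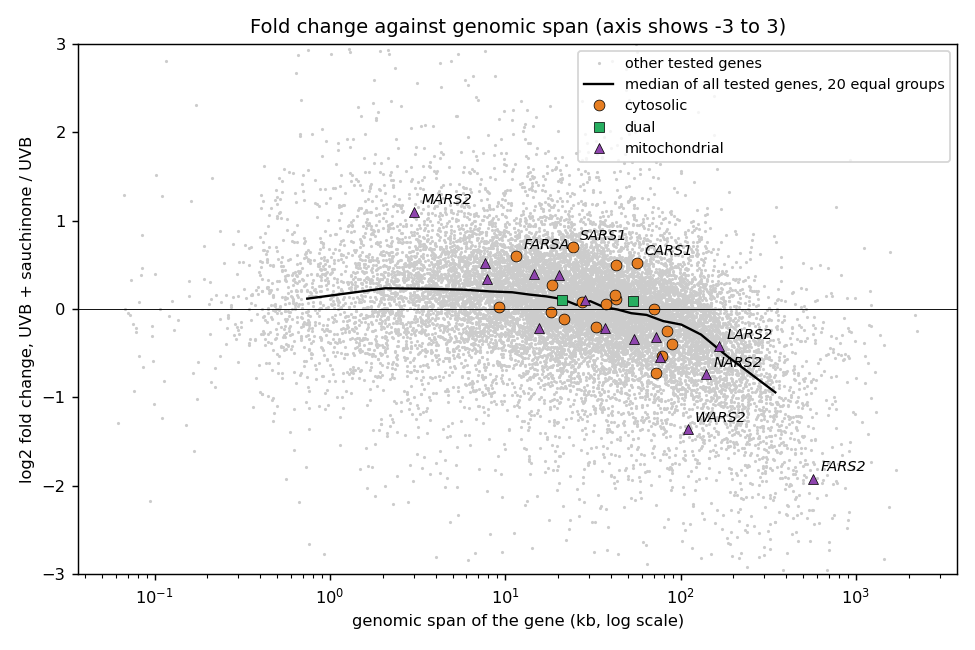
Log2 fold change, UVB + sauchinone over UVB, against the genomic span of each gene in kb (log scale). Grey points are other tested genes, the black line joins medians of equal-sized groups of all tested genes, and the larger symbols are the synthetase genes reported here by compartment. The line lies above 0 among short genes and below 0 among long ones, and FARS2 at 568 kb and −1.92 is the longest member, MARS2 at 3.03 kb the shortest.

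For the amino acids served by separate genes, the balance between the cytosolic and the mitochondrial enzyme was compared within each library as the log2 ratio of counts per exonic kilobase, over 18 pairs. Of these ratios, 8 were higher with sauchinone with no overlap between the groups, 5 were lower with no overlap and 5 overlapped. Among single genes tested, 57.1% had groups that did not overlap, and no such share was computed for other pairs of genes. EPRS1, FARS2 and TARS2 recur among the pairs, so the pairs are not independent. In exact two-sided permutation tests no pair could fall below p = 0.1, the smallest that 3 against 3 allow, and the smallest adjusted p over the 18 pairs was 0.14. The median difference was 0.0095.

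Without any adjustment for genomic span, the phenylalanine pair shifted the most. The log2 ratio of FARSA to FARS2 was 4.12, 3.83 and 3.76 in UVB and 7.08, 6.39 and 6.04 with sauchinone, a difference of 2.60 ± 0.33 (SE), or a geometric mean ratio of 15.0 against 90.9. For FARSB to FARS2 the difference was 1.59, and this pair shares FARS2 with the first. The tryptophan ratio, WARS1 to WARS2, was 2.40, 2.53 and 2.16 in UVB and 3.76, 3.88 and 3.89 with sauchinone, a difference of 1.48 ± 0.11. With the span trend removed, log2 fold changes of the single genes were 0.42 (FARSA), −0.23 (FARSB), −0.75 (FARS2), 0.11 (WARS1) and −1.11 (WARS2). No ratio was recomputed with that trend removed. Serine (0.88, with the low-count SARS2), cysteine (0.84), asparagine (0.62), tyrosine (0.40) and arginine (0.34) also shifted toward the cytosolic enzyme with no overlap.

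The methionine and proline ratios moved the other way. The log2 ratio of MARS1 to MARS2 was 2.77, 3.19 and 3.24 in UVB and 2.37, 1.98 and 2.00 with sauchinone, a difference of −0.95 ± 0.19. The ratio of EPRS1 to PARS2 was 4.63, 4.69 and 5.25 in UVB and 3.70, 3.79 and 3.92 with sauchinone, a difference of −1.05 ± 0.21. Alanine (−0.35) and histidine (−0.07) were also lower with no overlap, while isoleucine, leucine, both threonine pairs and glutamate overlapped.

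**Figure D4:**
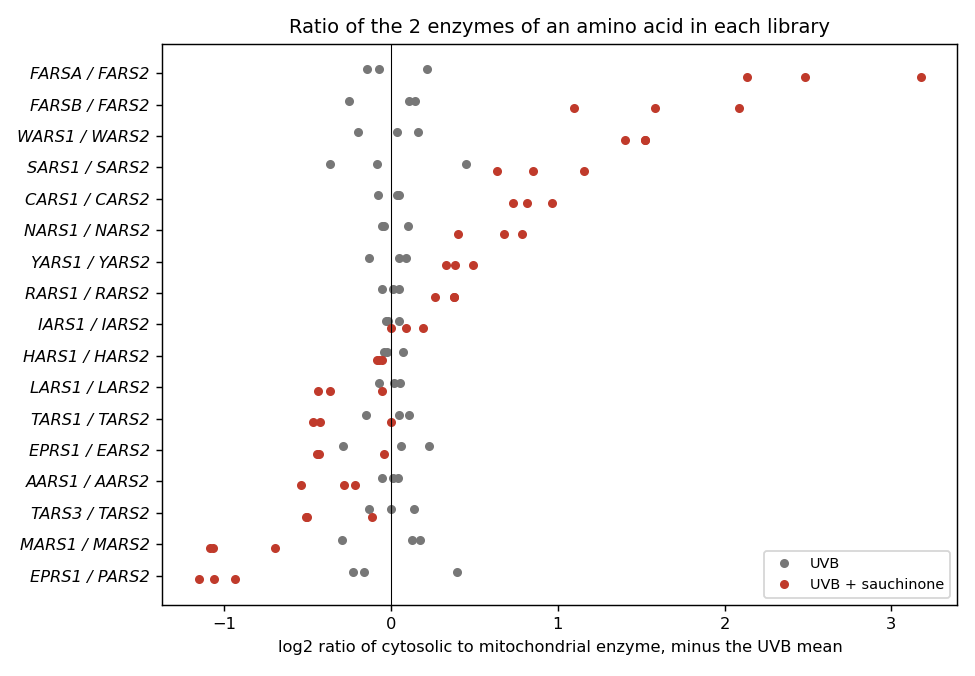
Log2 ratio of the cytosolic to the mitochondrial enzyme per exonic kilobase for the amino acid pairs reported here, minus its UVB mean (horizontal axis), with 1 point per library and the groups in grey (UVB) and red (UVB + sauchinone). The phenylalanine and tryptophan pairs lie farthest to the right with sauchinone, by 2.60, 1.59 and 1.48, and the methionine and proline pairs farthest to the left, by −0.95 and −1.05. The ratios are not adjusted for genomic span.

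The multi-synthetase complex held falls and no rises. Of its 8 synthetase genes 5 fell, among them LARS1, EPRS1, IARS1 and RARS1, and 3 did not pass, beside 24.9% lower among all genes tested and 47.0% among those of at least 50 kb. Their median log2 fold change was −0.23, beside 0.0071 for all genes. The calls of IARS1 and RARS1 were lost in 1 or more of the trend removals. Its members span a median of 57.1 kb, against 28.0 kb for all genes tested, and the median with the span trend removed was −0.22. Of the 3 scaffold genes, AIMP1 fell from 117 ± 11.0 to 83.2 ± 5.49 CPM (log2 fold change −0.49 ± 0.09, adjusted p = 4.9e-05), AIMP2 rose from 16.7 ± 1.44 to 22.9 ± 0.26 CPM (0.46 ± 0.11, adjusted p = 0.0011), and EEF1E1 did not pass (−0.14).

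By the structural class of the catalytic domain, 3 of 17 tested class I members rose and 8 fell (median −0.20), and 7 of 19 class II members rose and 5 fell (median 0.08). Both domains are present in EPRS1, which was counted in neither. These counts are 17.6% higher and 47.1% lower for class I, and 36.8% and 26.3% for class II. Of all genes tested 24.7% were higher and 24.9% lower, and of those of at least 50 kb 12.7% and 47.0%. Class I members span a median of 43.0 kb and class II members 24.3 kb. With the span trend removed the medians were −0.17 and 0.02. The difference between the classes was not tested.

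The synthetase genes known as ATF4 targets did not move together. Of 12 such genes, SARS1, CARS1 and YARS1 rose, LARS1, EPRS1 and IARS1 fell and AARS1, GARS1, MARS1, NARS1, TARS1 and WARS1 did not pass (median 0.08). That is 25.0% higher and 25.0% lower, near the 24.7% and 24.9% of all genes tested, so these counts show nothing particular to the list. Of the 9 other cytosolic or dual genes, 2 rose and 3 fell (median 0.0029). ATF4 itself rose from 111 ± 9.18 to 156 ± 15.0 CPM (log2 fold change 0.49 ± 0.09, adjusted p = 5.4e-05), although ATF4 is controlled largely at translation, which these data do not measure. TRIB3, DDIT3 and CEBPG, other genes of this response, rose by 0.89, 0.51 and 0.51 on the log2 scale. Once the span trend was removed, ATF4 was at 0.26, TRIB3 at 0.85 and CEBPG at 0.31, and DDIT3 was no longer called (0.28, adjusted p = 0.06, edgeR).

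The promoters of the members were searched for TGATGNAA, the core of the C/EBP-ATF response element that ATF4 binds, on both strands. Promoters of 300 bases, 250 before to 50 after the gene start, were taken from RefSeq (GRCh38.p14) and were present for 30 of the 38 members, so 8 members, LARS1, YARS1, VARS1, TARS3 and AARS2 among them, were not searched. The motif was found in 8 of 30 members (26.7%), beside 4.46% of 27305 genes with a promoter and 2.84% of 11104 tested genes with one. It was found in 7 of 10 searched genes of the ATF4 list and in 1 of the 20 others. The windows that hold it are printed to show its orientation and flanking bases, since the letters of the element itself were set by the search. Each is 28 bases long, written 5′ to 3′ on the strand of the gene, with the motif in capitals.
AARS1, chr16:70289676-70289703, minus strand: tttctcgcagTTGCATCAgccaagttag
CARS1, chr11:3057408-3057435, minus strand: ggggcggcggTTGCATCAgattctagga
GARS1, chr7:30594835-30594862, plus strand: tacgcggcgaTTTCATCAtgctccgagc
IARS1, chr9:92293693-92293720, minus strand: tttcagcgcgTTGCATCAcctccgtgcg
MARS1, chr12:57488054-57488081, plus strand: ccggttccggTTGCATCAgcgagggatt
NARS1, chr18:57621805-57621832, minus strand: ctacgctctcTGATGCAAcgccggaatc
TARS1, chr5:33440957-33440984, plus strand: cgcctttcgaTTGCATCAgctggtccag
YARS2, chr12:32756077-32756104, minus strand: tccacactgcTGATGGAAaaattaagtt

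Read on the gene's strand, the element appears as TTGCATCA in AARS1, CARS1, IARS1, MARS1 and TARS1, as TTTCATCA in GARS1, and in the other orientation in NARS1 and YARS2. It begins 2 bases before the start in CARS1, 4 in MARS1, 13 in IARS1, 33 in GARS1, 187 in AARS1 and 197 in YARS2, and 14 and 2 bases after it in NARS1 and in TARS1, the latter at the second start that RefSeq gives. A match to these letters is not shown to be a bound site. Of the members with the motif, CARS1 rose, IARS1 fell and 6 did not pass, and of the members searched the motif was present in 1 of 8 that rose, 1 of 11 that fell and 6 of 11 that did not pass.

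Of 71 tested genes in 8 lists that act around the synthetases, 32 rose (45.1%) and 15 fell (21.1%), beside 24.7% and 24.9% of all genes tested. Among all tested genes under 50 kb, 30.8% rose and 13.6% fell. With the span trend removed, 27 of the list genes rose and 15 fell, beside 3804 and 3463 of the 15704 genes tested. Of the 32 rises without that step, the lists of RNA polymerase III and of tRNA maturation held 20. Over the 6 other lists 12 rose and 9 fell of 35 tested. The list of RNA polymerase III, which makes tRNA, with its factors and regulators had 11 of 20 genes higher and 4 lower (median 0.36). Among the rises were POLR3A (0.79), the catalytic subunit, GTF3C4 (0.79), the initiation factor BRF2 (1.08) and the regulator MAF1 (0.35), and POLR3B was lower (−0.59). POLR3D, POLR3K and MAF1 were no longer called once the span trend was removed. POLR3B spans 152 kb and was not called with the span trend removed (−0.16, adjusted p = 0.14, edgeR). Export and maturation of tRNA had 9 of 16 higher and 2 lower (median 0.29). There the RNase P subunit genes RPP25 (1.19) and POP1 (0.50) rose, and PRORP, the nuclease of mitochondrial RNase P, fell by 1.17 on the log2 scale (−0.74 with the span trend removed). Of the exporter genes in the list, XPO5 rose (0.38) and XPOT did not pass (0.16, adjusted p = 0.081, edgeR). XPOT was called higher with the span trend removed (0.17, adjusted p = 0.041, edgeR).

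Delivery of charged tRNA to the ribosome had 3 of 7 higher and 1 lower (median 0.30). The elongation factor genes EEF1D (0.60), EEF1B2 (0.30) and TUFM (0.43), the last of them mitochondrial, rose, and EEF1A2 fell by 1.09. Once the span trend was removed, TUFM was at 0.20 and EEF1B2 was not called (0.07, adjusted p = 0.41, edgeR). Of 6 selenocysteine genes 2 rose (SEPHS2, 0.77, which makes the selenium donor, and SECISBP2, 0.31) and 2 fell (EEFSEC, −1.02, the dedicated elongation factor, and SEPSECS, −0.42, the enzyme that forms selenocysteine on its tRNA). EEFSEC spans 255 kb and was not called with the span trend removed (−0.28, adjusted p = 0.23), and the SEPSECS call was lost without UVB replicate 3 (−0.27, adjusted p = 0.074, edgeR).

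Human mitochondria make glutaminyl-tRNA by converting glutamyl-tRNA with an amidotransferase. Its subunit genes split, with GATB lower (−0.82), GATC higher (0.43) and QRSL1 not passed (−0.18), and MTFMT, which formylates the initiator methionyl-tRNA, did not pass (0.25). Of 5 tested genes that remove wrongly charged or stalled tRNA, PTRH2 rose (0.51) and DTD1 (−0.86, or −0.34 with the span trend removed) and PTRHD1 (−0.33) fell. The PTRHD1 call was lost without any one library other than UVB replicate 3. In the sensing of uncharged tRNA 4 of 10 rose and 2 fell (median 0.11). IMPACT, an inhibitor of GCN2, fell by 0.61 and EIF2S2 fell by 0.20, a call lost without UVB replicate 1 or UVB + sauchinone replicate 1 or 3, while EIF2AK4 itself (−0.17, adjusted p = 0.065, edgeR) and its activator GCN1 (0.11) did not pass.

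Some members share genomic bases with other genes, and the sources used here do not state whether reads were counted by strand. YARS2 overlaps DNM1L on the opposite strand over 18161 bases, and DNM1L had 18956 counts in all against 2149 for YARS2. WARS2 overlaps WARS2-AS1 over 264 bases (1892 counts against 1222), and KARS1 overlaps TERF2IP over 871 bases (23069 counts against 24192). WARS2-AS1 did not pass (−0.19), and TERF2IP rose by 0.68, while KARS1 did not pass. MARS1 and DDIT3 share 982 bases and CARS2 and ING1 868 bases, again on opposite strands. On the same strand, HARS2 shares 626 bases with ZMAT2 (15533 counts against 7998), which did not pass (0.11). EARS2 shares 1242 bases of its strand with GGA2 (5754 counts against 3064), which rose by 0.24. VARS2 and MARS2 lie wholly inside longer genes of the same strand that had 10 and 0 counts in all, and SARS2 shares 15360 bases with another such gene at 0 counts. YARS2 shares 731 bases of its strand with a gene that had 103 counts in all. YARS1 overlaps S100PBP over 1265 bases (5079 counts against 16682) and HARS1 overlaps WDR55 over 1090 bases (4755 against 16941), on opposite strands. The counts of VARS2, MARS2, SARS2, HARS2, EARS2 and YARS2 therefore depend on how shared reads were assigned. If strand was not used, the same holds for members with opposite-strand overlaps, WARS2, KARS1, MARS1, CARS2, YARS1 and HARS1 among them.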

How the data were processed

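RNA of 6 HFF libraries was sequenced, and the authors deposited 1 table of 61806 genes with raw counts per library, FPKM values, exonic sizes and coordinates. Coordinates are on GRCh38 (per the submitters' processing notes). Aligner, annotation and use of strand in counting were not given in the sources used here. Libraries were strand-specific and made after poly(A) selection or removal of ribosomal RNA, per the labels' protocols, which do not say which. All libraries carry 1 batch label. The deposited FPKM equalled count over exonic size and total within 0.006 in 100% of values and served only to rank levels.

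The test on the deposited counts was run with edgeR 4.0.16 under R 4.3.3 (filterByExpr, TMM, quasi-likelihood test, two-sided, Benjamini-Hochberg over 15704 genes, threshold 0.05). CPM uses TMM-scaled totals, and positive values mean higher with sauchinone. The median standard error of a log2 fold change was 0.12. Alternatives were DESeq2 1.42.0, limma-voom (limma 3.58.1), other scalings and count filters, a minimum fold change of 1.2, a fit with replicate number as block, leaving out each library, and removal of trends with span, exonic size or GC content (GENCODE 29 transcripts, 98.2% of tested genes). The fit was tested on simulated data. A few results are not reported here, though their genes stay in the counts. The other members are named, with values per library for the 6 largest called rises and falls in each compartment, and the 4 called genes of each list with the smallest p are named. Other names were chosen after their values were seen. Members, groups and the 8 lists were chosen with earlier results of these data known.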

Additional observations from a re-analysis of the deposited data

How the results depend on the processing

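Under 18 alternatives, 13 of the 24 called members kept their direction and call in every setting (among them SARS1, FARSA, CARS1, YARS1, LARS1, EPRS1, FARSB, MARS2, FARS2, WARS2, NARS2 and RARS2), and 5 of 13 members that did not pass stayed so in every setting. With a minimum fold change of 1.2, 1 mitochondrial gene was called higher instead of 5 and 4 lower instead of 8, and 2357 of all genes were called higher instead of 3872, since that test asks for more than a difference from 0. With the span trend removed, 2 mitochondrial genes were called higher, and LARS2 turned to 0.050. With the exonic size trend removed IARS1 turned to 0.16, and with the GC trend removed TSEN34, a gene of the maturation list, turned to −0.016. With scaling by library size only, the cytosolic median was 0.073 instead of 0.03. The cause of these changes was not tested. Leaving out each library gave 5 to 6 cytosolic rises, 5 to 6 cytosolic falls, 4 to 5 mitochondrial rises and 6 to 8 mitochondrial falls. A scaling moved the median of all genes by at most 0.045. With the replicate number as a block, 5 cytosolic genes rose and 6 fell and 5 mitochondrial genes rose and 8 fell, the same genes as without it, and over the 8 lists 31 rose and 14 fell. Same-numbered libraries did not deviate together (correlations of 0.0072, −0.08 and −0.03), and differently numbered ones gave −0.07 to 0.098. These values cannot show whether the libraries were paired by experiment, and the replicate numbers were treated as names. Genes such as SARS2 and VARS2, with at most 45 counts per library, limit what can be seen. Both overlap another gene of the same strand, and whether this lowered their counts was not tested.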
